A study of Mus musculus with 16 samples.

Results

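Heat shock proteins and J-domain proteins are molecular chaperones, and 68 of the 33289 genes in the deposited expression table belonged to this group. They were the protein-coding genes whose mouse symbol begins with Hspa, Hspb, Hspd, Hspe, Hsph, Hsp90, Dnaja, Dnajb or Dnajc. The endoplasmic reticulum stress genes Hspa5, Hsp90b1, Dnajb9 and Dnajc3, and Hspb1, were left out by name, and 10 pseudogenes matching the symbols were not protein coding. The rule itself uses no measured value, but the group was chosen with earlier results of these data known. Of these, 60 reached 0.5 RPKM (reads per kilobase of gene, scaled to the mapped reads of each library) in at least 3 libraries and were tested for differences. The 68 comprised 2 HSP90 genes, 12 HSP70 and HSP110 genes, 2 chaperonin genes, 7 genes with small heat shock protein symbols, 2 genes for proteins that bind heat shock proteins, and 4 Dnaja, 12 Dnajb and 27 Dnajc genes.

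HSP70 proteins hold unfolded stretches of other proteins in a cycle driven by ATP. J-domain proteins bring substrates to HSP70 and stimulate its ATPase, and nucleotide exchange factors such as HSP110 and BAG proteins then release ADP and the substrate. HSP90 acts later on near-native clients, many of them kinases and steroid hormone receptors, while small heat shock proteins bind unfolding proteins without ATP. Under heat or proteotoxic stress the transcription factor HSF1 binds heat shock elements, arrays of the unit NGAAN in alternating orientation, and raises the inducible genes. In the brain these chaperones are known for handling aggregation-prone proteins, and the J-domain proteins Dnajc5 and Dnajc6 for work on synaptic and clathrin-coated vesicles.

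Sequenced RNA came from hemi-brain tissue of C57BL/6J mice 3 to 4 months old, perfused with PBS and sampled 8 h post injection. The 4 groups of 4 libraries were mice labelled Lcn2-/- given lipopolysaccharide (LPS, a bacterial outer membrane component that activates innate immunity), mice labelled Lcn2-/- given saline, wild type mice given LPS and wild type mice given saline. Lcn2 is the gene of lipocalin-2, which is secreted and captures the iron carriers of bacteria, and the series asks how it bears on the inflamed brain. The LPS dose, the route, the sex and the construction of the Lcn2 allele were not stated in the sources used here. The values are the authors' log2 RPKM after conditional quantile normalization, given here as RPKM, and carry no read depth.

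The targeted gene was examined first. Lcn2 had 40.1, 34.1, 38.3 and 37.2 RPKM in LPS libraries labelled Lcn2-/-, against 0.132, 0.204, 0.351 and 0.247 RPKM in saline libraries with that label. It had 71.5, 67.8, 66.7 and 82.7 RPKM in wild type LPS libraries, against 0.0650, 0.0741, 0.204 and 0.137 RPKM in wild type saline libraries. Lcn2 transcript was therefore present after LPS in every library labelled Lcn2-/-, at a lower level than in each wild type LPS library. The difference between the genotypes after LPS was a log2 fold change of -0.94 ± 0.31 (SE), adjusted p = 0.05 after rounding, which did not pass; it passed without saline replicate 4 labelled Lcn2-/- in the shared fit (adjusted p = 0.032). The table gives 1 value per gene, so it cannot show whether reads came from a deleted exon; these animals are called "labelled Lcn2-/-" throughout. All 11 neuron markers were measured, with a summed level of 1140 to 1178 RPKM and 1125 to 1163 RPKM in LPS and saline libraries labelled Lcn2-/-, and 1167 to 1185 RPKM and 1127 to 1173 RPKM in wild type LPS and saline libraries. Saline replicate 4 labelled Lcn2-/- stood apart, with an estimated relative precision (limma array weight) of 0.0914, against 0.74 to 1.85 in the other libraries. Some results that rest on it are given with and without it. Others, such as those of Bag3, Cct3, Grpel1, Grpel2, Cdc37l1, Dnaja3, Dnajc13 and Dnajc16, are given only with it included.

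Heat shock elements were looked for in RefSeq promoters (build GRCm38.p6, 250 bases before to 50 after each start), since HSF1 acts through them. The motif searched was 3 units, GAANNTTCNNGAA, on both strands. It occurred in 4 of 54 chaperone genes that had a promoter entry (7.41%), against 179 of 27025 genes with an entry in all (0.662%); 14 chaperone genes had no entry. The 4 were Dnajb6, Hsph1, Hspd1 and Hspe1, and the last 2 were counted for the same pair of matches. The stress-inducible genes Hspa1a, Hspa1b and Dnajb1 had entries without a 3-unit match. Hsp90aa1, Hsp90ab1, Hspa8 and Hspa9 were among those without an entry and were not searched. With 2 units, GAANNTTC or TTCNNGAA, which every 3-unit match contains, the shares were 15 of 54 (27.8%) and 4587 of 27025 (17.0%). Hspa1a and Hspa1b were among the 15, and Dnajb1 was not. Hspd1 and Hspe1 encode the mitochondrial chaperonin HSP60 and its HSP10 lid and are read in opposite directions. A pair of overlapping matches sits between 1 RefSeq start of each, in the 107 bases at chr1:55088025-55088131. This stretch lies inside the annotated Hspd1 gene, whose other RefSeq start has no match in its window. In Dnajb6 the match starts 46 bases before the first RefSeq start, within the 29 bases shown from chr5:29735844-29735872. Both stretches are shown on the plus strand because they carry every 3-unit match that lies before a start, with the matched bases in capitals.
Hspd1 and Hspe1: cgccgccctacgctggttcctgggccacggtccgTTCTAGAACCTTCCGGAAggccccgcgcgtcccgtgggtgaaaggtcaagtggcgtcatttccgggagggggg
Dnajb6: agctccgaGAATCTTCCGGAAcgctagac
A match describes these letters and is not evidence of binding.

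The chaperone transcripts spanned a wide range of levels in the brain. Hsp90ab1, the constitutive cytosolic HSP90, had the highest level at 228.5 RPKM (geometric mean of 16 libraries) and took 19.3% of the summed level of the 68 genes. Hsp90aa1, the stress-inducible HSP90, followed at 85.9 RPKM. Next came Dnaja2, a cytosolic J-domain partner of HSP70, at 72.4 RPKM and Hspa9, the mitochondrial HSP70 mortalin, at 45.4 RPKM. The first 9 genes held 52.3% of the sum. The constitutive HSP70 gene Hspa8 averaged 19.6 RPKM, and the inducible HSP70 genes Hspa1a and Hspa1b reached at most 1.95 and 1.29 RPKM. The summed level was 1220 ± 5.70 RPKM in LPS libraries and 1162 ± 13.3 RPKM in saline libraries labelled Lcn2-/-, and 1172 ± 12.9 RPKM in wild type LPS and 1181 ± 14.1 RPKM in wild type saline libraries (SD, n = 4 each).

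**Figure D1:**
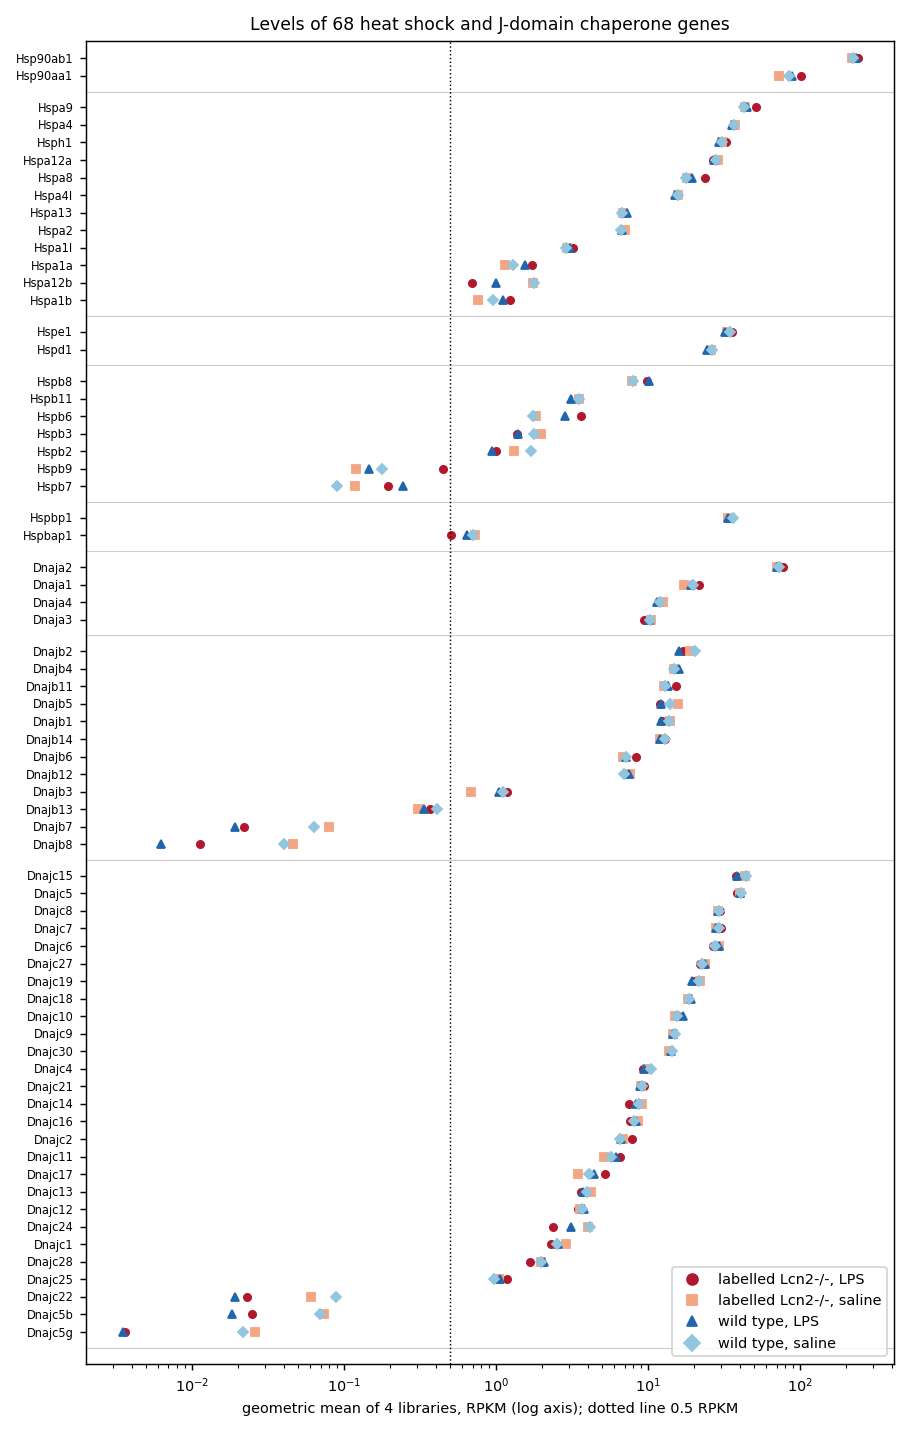
Geometric mean level of the 68 genes in each group (RPKM, log axis, 4 libraries a point), ordered by level within each family; the dotted line marks 0.5 RPKM. Hsp90ab1 lies highest, and 8 genes stay at the left, below or close to the line.

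The 8 genes not tested were Dnajb7, Dnajb8, Dnajb13, Dnajc5b, Dnajc5g, Dnajc22, Hspb7 and Hspb9, and none exceeded 0.589 RPKM in any library. That highest value belonged to Hspb9, a small heat shock protein gene known from testis, picked out here after its values were seen. Hspb9 had 0.425, 0.589, 0.344 and 0.456 RPKM in LPS libraries labelled Lcn2-/-, against 0.161, 0.115, 0.115 and 0.0987 RPKM in saline libraries with that label. It had 0.110, 0.261, 0.228 and 0.0704 RPKM in wild type LPS libraries, against 0.109, 0.137, 0.256 and 0.257 RPKM in wild type saline libraries. Every LPS library labelled Lcn2-/- lay above all 12 others, at levels too low for the test.

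In wild type mice LPS raised 3 of the 60 tested chaperone genes (5.0%) and lowered 8 (13.3%), where 11.4% of all 17349 genes tested were called higher and 13.9% lower (limma, Benjamini-Hochberg adjusted p under 0.05 over all genes). The rises were the small heat shock proteins Hspb6 and Hspb8 and the J-domain gene Dnajc10. The falls were Hspb2, Hspb3, the HSP70 relative Hspa12b and 5 J-domain genes. The median log2 fold change was -0.032 over the 60 and -0.025 over all genes. With GC content and length trends removed the members' counts were 2 higher and 13 lower, where 11.5% and 16.4% of all genes were called. With saline replicate 4 labelled Lcn2-/- left out of the shared fit they were 5 higher and 12 lower, where 14.9% of all genes were called higher and 19.8% lower, and without wild type saline replicate 1 they were 5 and 11, where 10.9% and 13.0% of all genes were called. Each group held 4 libraries, and p-values measure only the spread between these samples, which may be partly technical. Each call was repeated under 24 alternatives, changes of 1 processing choice or 1 library left out, and where any of them ended a call the highest adjusted p among them is given beside the call's values.

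In mice labelled Lcn2-/-, LPS raised both HSP90 genes, 4 HSP70 genes and 8 J-domain genes (2 Dnaja, 2 Dnajb and 4 Dnajc) beside Hspb6 and Hspb8. It lowered 2 HSP70 genes, 1 Dnaja, 3 Dnajb and 8 Dnajc genes, Hspb3 and Hspbap1. There were 16 genes that rose (26.7%) and 16 that fell (26.7%), where 20.7% of all genes were called higher and 27.7% lower. The median log2 fold change was -0.0089 over the 60 and -0.028 over all genes. Without saline replicate 4 labelled Lcn2-/- there were 18 higher and 15 lower, where 20.7% of all genes were called higher and 28.1% lower. The 2 LPS comparisons share no library. Hspb6 and Hspb8 rose in both, which is 66.7% of the rises in wild type and 12.5% of those in mice labelled Lcn2-/-. Dnajb1, Dnajb2, Dnajb5, Dnajc24, Hspa12b and Hspb3 fell in both, which is 75% of the falls in wild type and 37.5% of those in mice labelled Lcn2-/-. Over all genes the calls made in both were 77.2% of the rises and 73.5% of the falls in wild type, and 42.6% and 36.9% of those in mice labelled Lcn2-/-. LPS and saline libraries did not overlap for 25% of the 60 in wild type, where 32.4% of all genes tested did not. In mice labelled Lcn2-/- these shares were 51.7% and 42.4%. No such share was taken for a group lying apart from all other libraries. Whether the effects differ is tested by the interaction below.

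**Figure D2:**
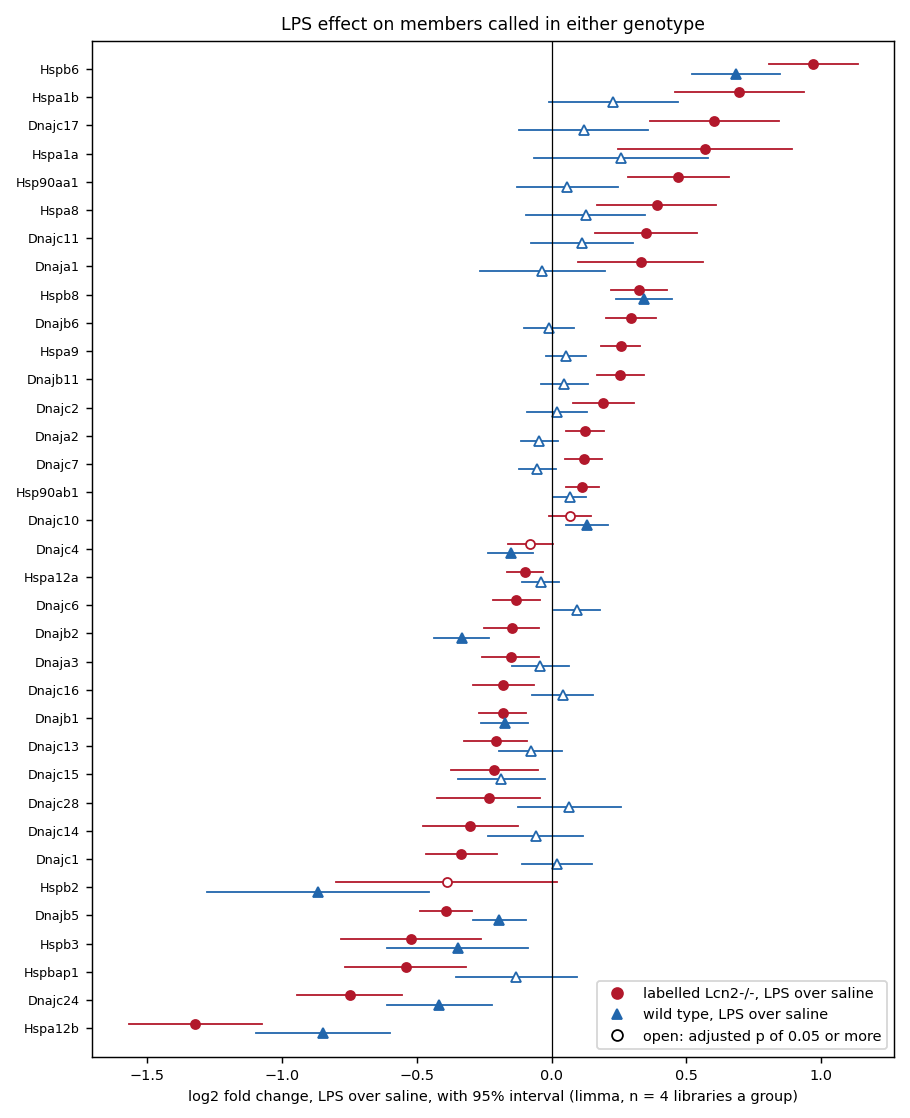
LPS effect (log2 fold change, LPS over saline, with its 95% interval, 4 libraries a group) on the 35 members called in either genotype, with mice labelled Lcn2-/- drawn above wild type for each gene and open symbols where adjusted p was 0.05 or more. Hspb6 and Hspb8 lie right of 0 in both, Hspa12b and Dnajc24 left of 0 in both, and Hspa9, Dnajb6 and Hsp90aa1 are filled for mice labelled Lcn2-/- and open for wild type.

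Among the 60 tested members, which do not include Hspb1, the largest rise was that of Hspb6, a small heat shock protein gene. Hspb6 (HSP20, an ATP-independent chaperone abundant in muscle; chr7:30552178-30555443) had 3.76, 3.42, 3.44 and 3.81 RPKM in LPS libraries labelled Lcn2-/-, against 1.75, 1.90, 1.64 and 2.09 RPKM in saline libraries with that label. It had 2.71, 2.82, 2.73 and 3.05 RPKM in wild type LPS libraries, against 1.88, 1.69, 1.84 and 1.64 RPKM in wild type saline libraries. LPS and saline libraries did not overlap in either genotype. The effect was 0.97 ± 0.077, adjusted p = 6.5e-08 in mice labelled Lcn2-/- and 0.68 ± 0.077, adjusted p = 5.7e-06 in wild type. After LPS the libraries labelled Lcn2-/- also lay above all wild type ones (0.35 ± 0.077, adjusted p = 0.0073). Hspb8, which works with the cofactor BAG3 to route damaged proteins to autophagy, had 9.75, 10.3, 9.05 and 10.1 RPKM in LPS libraries labelled Lcn2-/-, against 7.85, 7.40, 7.99 and 8.09 RPKM in saline libraries with that label. It had 9.62, 10.7, 10.2 and 10.0 RPKM in wild type LPS libraries, against 7.69, 7.91, 7.92 and 8.46 RPKM in wild type saline libraries. Again neither genotype showed an overlap. The rise was 0.32 ± 0.048, adjusted p = 6e-05 in mice labelled Lcn2-/- and 0.34 ± 0.048, adjusted p = 5.9e-05 in wild type.

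Hspb2 and Hspb3, which form a muscle-type small heat shock protein complex, fell with LPS in wild type. Hspb2 had 1.12, 1.23, 0.849 and 0.866 RPKM in LPS libraries labelled Lcn2-/-, against 1.42, 1.21, 1.89 and 0.922 RPKM in saline libraries with that label. It had 0.884, 1.20, 0.838 and 0.853 RPKM in wild type LPS libraries, against 1.64, 1.45, 1.93 and 1.82 RPKM in wild type saline libraries. Wild type LPS and saline libraries did not overlap, and Hspb2 fell in wild type (-0.86 ± 0.19, adjusted p = 0.0033). In mice labelled Lcn2-/- the groups overlapped and the effect did not pass (-0.39 ± 0.19, adjusted p = 0.11), while without saline replicate 4 it did (log2 fold change -0.56, adjusted p = 0.015). Hspb2 shares 30.2% of its exonic bases with the small heat shock protein gene Cryab on the opposite strand. Whether reads were counted by strand was not given in the sources used here, so the genes may share reads. Cryab had 65.8, 70.2, 69.8 and 65.5 RPKM in wild type LPS libraries, against 89.5, 93.8, 94.8 and 89.9 RPKM in wild type saline libraries, and also fell in wild type (-0.44 ± 0.069, adjusted p = 0.00017). Hspb3 had 1.36, 1.57, 1.42 and 1.17 RPKM in LPS libraries labelled Lcn2-/-, against 1.81, 1.94, 2.21 and 1.92 RPKM in saline libraries with that label. It had 1.41, 1.35, 1.46 and 1.32 RPKM in wild type LPS libraries, against 1.34, 1.77, 2.10 and 1.93 RPKM in wild type saline libraries. In wild type 1 saline library lay within the LPS range. Its fall passed in mice labelled Lcn2-/- (-0.52 ± 0.12, adjusted p = 0.0026) and in wild type (-0.35 ± 0.12, adjusted p = 0.048, and 0.16 without wild type saline replicate 3). The wild type call was ended by 12 of the 24 alternatives. Hspb11, an intraflagellar transport subunit despite its symbol, did not pass in any comparison.

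Markers of several cell types moved with LPS too. Of 9 microglia markers 2 were higher and 7 lower in mice labelled Lcn2-/-, and 2 and 6 in wild type. Of 9 oligodendrocyte markers these counts were 1 and 4, and 0 and 4. Of 8 choroid plexus markers they were 0 and 4, and 0 and 2. Of 11 neuron markers they were 2 and 2, and 0 and 0. Of 9 ependymal and ciliated cell markers they were 0 and 1, and 0 and 2. Of 6 neutrophil markers tested they were 3 and 1 in each genotype. Of 4 erythrocyte markers tested they were 0 and 0, and 0 and 1. Among all genes 20.7% were called higher and 27.7% lower in mice labelled Lcn2-/-, and 11.4% and 13.9% in wild type. In smooth muscle and pericytes, cell types that express Hspb6 and Hspb2, 9 of 10 markers were tested, Cnn1 being too low. In mice labelled Lcn2-/- 0 were higher and 5 lower after LPS, and in wild type 1 was higher and 4 lower. Their summed level was 46.0 to 53.7 RPKM in LPS and 55.8 to 63.4 RPKM in saline libraries labelled Lcn2-/-, and 48.3 to 54.7 RPKM in wild type LPS and 62.2 to 65.9 RPKM in wild type saline libraries. The contractile genes Acta2, Tagln and Myh11 and the pericyte gene Rgs5 were lower in both genotypes, Abcc9 was lower in mice labelled Lcn2-/- and Kcnj8 higher in wild type. Acta2, smooth muscle actin, fell in both genotypes (-0.50 ± 0.086, adjusted p = 0.0002 in mice labelled Lcn2-/- and -0.45 ± 0.086, adjusted p = 0.00089 in wild type) while Hspb6 rose. Of 9 astrocyte markers 5 were higher and 0 lower in each genotype, with sums of 651 to 680 RPKM against 525 to 544 RPKM in LPS and saline libraries labelled Lcn2-/-, and 641 to 678 RPKM against 539 to 554 RPKM in wild type. The part of these cells in the small heat shock protein results was not tested. In bulk tissue, fewer cells of a type and less RNA per cell cannot be told apart.

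Among HSP70 genes the largest fall was in Hspa12b, a divergent HSP70 relative known from endothelium (chr2:131127280-131146321). Hspa12b had 0.786, 0.610, 0.634 and 0.788 RPKM in LPS libraries labelled Lcn2-/-, against 1.96, 1.77, 1.89 and 1.42 RPKM in saline libraries with that label. It had 0.998, 1.02, 0.862 and 1.101 RPKM in wild type LPS libraries, against 1.70, 1.85, 1.81 and 1.77 RPKM in wild type saline libraries. LPS and saline libraries did not overlap in either genotype, and LPS libraries labelled Lcn2-/- lay below every wild type LPS library. The effect was -1.32 ± 0.12, adjusted p = 2.1e-07 in mice labelled Lcn2-/- and -0.85 ± 0.12, adjusted p = 4.4e-05 in wild type, and the difference after LPS was -0.50 ± 0.12, adjusted p = 0.0098. All 10 endothelial markers were tested, and the shares of all genes called are those given with the other markers above. In mice labelled Lcn2-/- 2 were higher and 6 lower after LPS, and in wild type 3 were higher and 5 lower. Their summed level was 60.1 to 71.3 RPKM in LPS and 72.5 to 85.6 RPKM in saline libraries labelled Lcn2-/-, and 67.1 to 73.8 RPKM in wild type LPS and 86.7 to 95.7 RPKM in wild type saline libraries. Slco1a4, Tek, Kdr and Flt1 were lower and Cdh5 and Esam higher in both genotypes. Pecam1 and Emcn were lower in mice labelled Lcn2-/-, and in wild type Cldn5 was lower and Ly6c1 higher. The log2 fold changes that passed ran between -4.45 for Slco1a4 and 1.995 for Cdh5 in mice labelled Lcn2-/-, and between -2.36 for Tek and 1.21 for Cdh5 in wild type. The part of endothelial cells in the fall of Hspa12b was not tested.

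The stress-inducible HSP70 genes and HSP90 gene rose with LPS in mice labelled Lcn2-/- and did not pass in wild type. Hspa1b had 1.27, 1.29, 1.25 and 1.15 RPKM in LPS libraries labelled Lcn2-/-, against 0.924, 0.729, 0.755 and 0.672 RPKM in saline libraries with that label. It had 1.097, 1.26, 1.04 and 1.06 RPKM in wild type LPS libraries, against 1.09, 0.980, 0.921 and 0.822 RPKM in wild type saline libraries. Hspa1b rose without overlap in mice labelled Lcn2-/- (0.70 ± 0.11, adjusted p = 0.00012), and in wild type the groups overlapped (0.23 ± 0.11, adjusted p = 0.16). Its neighbour Hspa1a had 1.78, 1.52, 1.84 and 1.72 RPKM in LPS libraries labelled Lcn2-/-, against 1.104, 1.08, 1.57 and 0.947 RPKM in saline libraries with that label. It had 1.45, 1.95, 1.57 and 1.31 RPKM in wild type LPS libraries, against 1.34, 1.103, 1.53 and 1.25 RPKM in wild type saline libraries. Saline replicate 3 labelled Lcn2-/- lay inside the LPS range. The effect was 0.57 ± 0.15, adjusted p = 0.006 in mice labelled Lcn2-/- and 0.26 ± 0.15, adjusted p = 0.25 in wild type. The copies are nearly identical in coding sequence, so how reads were split between them is uncertain.

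Hsp90aa1 (chr12:110690605-110702728) had 96.2, 104, 103 and 100.2 RPKM in LPS libraries labelled Lcn2-/-, against 82.7, 76.0, 80.04 and 56.1 RPKM in saline libraries with that label. It had 85.0, 92.9, 89.3 and 84.7 RPKM in wild type LPS libraries, against 81.1, 82.2, 88.0 and 86.4 RPKM in wild type saline libraries. All LPS libraries labelled Lcn2-/- lay above the 12 others, and saline replicate 4 with that label lay lowest. The effect was 0.47 ± 0.088, adjusted p = 0.00044 in mice labelled Lcn2-/- and 0.059 ± 0.088, adjusted p = 0.69 in wild type. The effect in mice labelled Lcn2-/- without saline replicate 4 was 0.34 (adjusted p = 6.4e-06). Hsp90ab1 had 245, 236, 239 and 236 RPKM in LPS libraries labelled Lcn2-/-, against 225, 218, 219.6 and 221 RPKM in saline libraries with that label. It had 231, 236, 228 and 234 RPKM in wild type LPS libraries, against 231, 225, 221 and 210.4 RPKM in wild type saline libraries. LPS and saline libraries labelled Lcn2-/- did not overlap, and those of wild type did. It rose slightly in mice labelled Lcn2-/- (0.11 ± 0.029, adjusted p = 0.0044, and 0.36 with GC content and length trends removed), and the effect did not pass in wild type (0.068 ± 0.029, adjusted p = 0.1).

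The constitutive HSP70 genes shared part of this pattern. Hspa8 (HSC70) had 23.1, 22.6, 26.3 and 23.2 RPKM in LPS libraries labelled Lcn2-/-, against 19.9, 18.9, 20.3 and 14.1 RPKM in saline libraries with that label. It had 18.8, 18.6, 20.7 and 19.6 RPKM in wild type LPS libraries, against 21.0, 17.9, 16.2 and 16.3 RPKM in wild type saline libraries. The LPS libraries labelled Lcn2-/- lay above all others, with a rise of 0.39 ± 0.10, adjusted p = 0.0058 in mice labelled Lcn2-/- against 0.13 ± 0.10, adjusted p = 0.43 in wild type. The first effect without saline replicate 4 labelled Lcn2-/- was 0.27 (adjusted p = 0.0087). Hspa9 (mortalin, chr18:34937414-34954357), which pulls proteins into the mitochondrial matrix, had 49.3, 53.8, 52.3 and 51.1 RPKM in LPS libraries labelled Lcn2-/-, against 44.5, 43.5, 42.8 and 42.0 RPKM in saline libraries with that label. It had 43.4, 46.0, 43.0 and 45.5 RPKM in wild type LPS libraries, against 41.2, 44.1, 43.6 and 42.6 RPKM in wild type saline libraries. Every LPS library labelled Lcn2-/- again lay above the 12 others. Hspa9 rose in mice labelled Lcn2-/- (0.26 ± 0.034, adjusted p = 1.9e-05), and the wild type effect did not pass (0.053 ± 0.034, adjusted p = 0.29).

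Hsph1, an HSP110 exchange factor for HSP70, had 32.2, 32.9, 33.1 and 32.5 RPKM in LPS libraries labelled Lcn2-/-, against 31.4, 29.4, 31.8 and 30.5 RPKM in saline libraries with that label. It had 29.1, 30.4, 28.5 and 28.3 RPKM in wild type LPS libraries, against 29.3, 29.8, 34.3 and 30.0 RPKM in wild type saline libraries. LPS libraries labelled Lcn2-/- lay above the other LPS libraries and above their saline libraries by little. Neither LPS effect passed, at 0.087 ± 0.044, adjusted p = 0.11 in mice labelled Lcn2-/- and -0.084 ± 0.044, adjusted p = 0.19 in wild type. After LPS its level was higher in libraries labelled Lcn2-/- than in wild type (0.17 ± 0.044, adjusted p = 0.018, and 0.053 without LPS replicate 3 labelled Lcn2-/-). Hspa12a, a brain HSP70 relative, fell with LPS in mice labelled Lcn2-/- (-0.10 ± 0.032, adjusted p = 0.02, and up to 0.29 under the alternatives), and the difference from the wild type effect did not pass (adjusted p = 0.42). Hspa1l, Hspa2, Hspa4, Hspa4l and Hspa13 passed in no comparison with all libraries. Hspa1l rose in mice labelled Lcn2-/- once saline replicate 4 was left out (0.20, adjusted p = 0.019).

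The mitochondrial chaperonin pair did not pass in any comparison with all libraries. Hspd1 (HSP60) had 25.4, 26.6, 26.6 and 25.7 RPKM in LPS libraries labelled Lcn2-/-, against 25.9, 24.5, 25.6 and 27.8 RPKM in saline libraries with that label. It had 24.4, 24.4, 24.1 and 25.0 RPKM in wild type LPS libraries, against 24.8, 26.0, 28.1 and 26.7 RPKM in wild type saline libraries. LPS and saline libraries overlapped in both genotypes. The LPS effect was 0.0085 ± 0.041, adjusted p = 0.88 in mice labelled Lcn2-/- and -0.11 ± 0.041, adjusted p = 0.067 in wild type. Hspe1 (HSP10) had 33.5, 35.5, 37.4 and 35.7 RPKM in LPS libraries labelled Lcn2-/-, against 33.2, 33.6, 32.0 and 33.1 RPKM in saline libraries with that label. It had 30.6, 32.8, 32.8 and 33.0 RPKM in wild type LPS libraries, against 31.1, 33.3, 37.5 and 35.6 RPKM in wild type saline libraries. The groups again overlapped in both, with LPS effects of 0.11 ± 0.050, adjusted p = 0.089 in mice labelled Lcn2-/- and -0.089 ± 0.050, adjusted p = 0.22 in wild type. When saline replicate 4 labelled Lcn2-/- was left out of the shared fit, the same wild type effect of Hspd1 passed (adjusted p = 0.022), as did a higher level of Hspe1 after LPS in mice labelled Lcn2-/- than in wild type (0.14, adjusted p = 0.046). The pair shares the promoter stretch printed above, with 2 overlapping heat shock element matches, and of the 10 pseudogenes left out of the group 5 are named after Hspe1 and 2 after Hspd1, so shared reads are possible.

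Of the genes for proteins that bind heat shock proteins, only Hspbap1 passed with all libraries. Hspbp1, an exchange factor for HSP70, had 35.1, 34.0, 36.1 and 34.2 RPKM in LPS libraries labelled Lcn2-/-, against 35.9, 37.1, 37.0 and 26.5 RPKM in saline libraries with that label. It had 34.9, 33.4, 32.5 and 32.4 RPKM in wild type LPS libraries, against 37.9, 35.2, 36.1 and 36.0 RPKM in wild type saline libraries. Saline replicate 4 labelled Lcn2-/- lay far below the rest, and no effect passed with all libraries (-0.12 ± 0.080, adjusted p = 0.29 for LPS in wild type, and adjusted p = 0.0051 without that library). Hspbap1, a small heat shock protein partner, had 0.514, 0.492, 0.503 and 0.498 RPKM in LPS libraries labelled Lcn2-/-, against 0.711, 0.670, 0.737 and 0.806 RPKM in saline libraries with that label. It had 0.603, 0.617, 0.687 and 0.680 RPKM in wild type LPS libraries, against 0.712, 0.618, 0.745 and 0.762 RPKM in wild type saline libraries. Its LPS libraries labelled Lcn2-/- lay below the 12 others. Hspbap1 fell with LPS in mice labelled Lcn2-/- (-0.54 ± 0.11, adjusted p = 0.00063), and did not pass in wild type (-0.13 ± 0.11, adjusted p = 0.42). After LPS it was lower in libraries labelled Lcn2-/- than in wild type (-0.36 ± 0.11, adjusted p = 0.03, and 0.08 without wild type LPS replicate 3). Its level lay close to the filter of 0.5 RPKM.

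J-domain genes of the Dnaja class, the closest partners of cytosolic HSP70, rose with LPS in mice labelled Lcn2-/- for 2 of 4. Another 1 fell, where 20.7% of all genes rose and 27.7% fell. Dnaja1 had 21.8, 21.7, 22.0 and 20.8 RPKM in LPS libraries labelled Lcn2-/-, against 19.0, 18.9, 19.9 and 12.1 RPKM in saline libraries with that label. It had 18.8, 19.4, 19.3 and 19.2 RPKM in wild type LPS libraries, against 18.9, 19.2, 20.9 and 19.6 RPKM in wild type saline libraries. The LPS libraries labelled Lcn2-/- lay above their saline libraries and above the wild type LPS libraries, and saline replicate 4 was far below all others. It rose in mice labelled Lcn2-/- (0.33 ± 0.11, adjusted p = 0.021, and 0.094 with a fit to the compared groups alone) and did not pass in wild type (-0.034 ± 0.11, adjusted p = 0.87). Its effect without saline replicate 4 labelled Lcn2-/- was 0.16 (adjusted p = 0.0012). Dnaja2 had 78.7, 76.0, 76.1 and 75.7 RPKM in LPS libraries labelled Lcn2-/-, against 74.1, 69.8, 71.8 and 65.7 RPKM in saline libraries with that label. It had 69.2, 70.7, 70.9 and 70.1 RPKM in wild type LPS libraries, against 71.1, 74.3, 72.9 and 71.6 RPKM in wild type saline libraries. LPS libraries lay above saline libraries in mice labelled Lcn2-/- and below them in wild type. Its small rise in mice labelled Lcn2-/- (0.12 ± 0.032, adjusted p = 0.0054, and 0.36 with GC content and length trends removed) faced a wild type effect of opposite sign that did not pass (-0.045 ± 0.032, adjusted p = 0.36). Dnaja3, a mitochondrial J-domain protein, fell in mice labelled Lcn2-/- (-0.15 ± 0.050, adjusted p = 0.02, and up to 0.083 under the alternatives), and Dnaja4 passed in no comparison. The Dnaja3 effect includes saline replicate 4, at 11.9 RPKM against 9.80 to 10.3 RPKM in the other saline libraries with that label.

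Of 9 tested Dnajb genes, 2 rose (22.2%) and 3 fell (33.3%) with LPS in mice labelled Lcn2-/-, where 20.7% and 27.7% of all genes did. In wild type 0 rose and the same 3 genes fell (33.3%), where 11.4% and 13.9% of all genes did. Dnajb6, which suppresses aggregation of polyglutamine proteins (chr5:29735688-29818134), had 8.28, 8.47, 8.68 and 8.05 RPKM in LPS libraries labelled Lcn2-/-, against 7.01, 6.89, 7.18 and 6.25 RPKM in saline libraries with that label. It had 6.87, 7.16, 7.19 and 7.20 RPKM in wild type LPS libraries, against 7.19, 6.87, 7.43 and 7.14 RPKM in wild type saline libraries. All LPS libraries labelled Lcn2-/- lay above the 12 others. The effect was 0.29 ± 0.044, adjusted p = 6.1e-05 in mice labelled Lcn2-/- and -0.0095 ± 0.044, adjusted p = 0.92 in wild type. Its promoter window carries the 3-unit match printed above, and the part of HSF1 in this effect was not tested. Dnajb11, an endoplasmic reticulum cofactor of BiP, had 14.6, 14.7, 16.2 and 15.2 RPKM in LPS libraries labelled Lcn2-/-, against 13.3, 13.1, 12.6 and 11.9 RPKM in saline libraries with that label. It had 13.3, 13.5, 13.4 and 13.5 RPKM in wild type LPS libraries, against 12.6, 12.9, 13.6 and 12.9 RPKM in wild type saline libraries. All LPS libraries labelled Lcn2-/- lay above the 12 others. It rose in mice labelled Lcn2-/- (0.25 ± 0.041, adjusted p = 0.00012) and the effect did not pass in wild type (0.047 ± 0.041, adjusted p = 0.46).

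The 3 Dnajb genes that fell in both genotypes included the classic heat-inducible J-domain gene. Dnajb1 (HSP40) had 11.5, 13.0, 12.8 and 12.2 RPKM in LPS libraries labelled Lcn2-/-, against 13.8, 13.7, 14.2 and 14.6 RPKM in saline libraries with that label. It had 12.04, 11.8, 11.9 and 12.7 RPKM in wild type LPS libraries, against 14.0, 13.3, 13.9 and 13.3 RPKM in wild type saline libraries. LPS libraries lay below saline libraries in both genotypes. The fall was -0.18 ± 0.041, adjusted p = 0.0019 in mice labelled Lcn2-/- and -0.17 ± 0.041, adjusted p = 0.0049 in wild type. Dnajb2, a neuron-enriched J-domain gene, had 16.3, 17.1, 17.8 and 16.6 RPKM in LPS libraries labelled Lcn2-/-, against 19.0, 19.0, 19.8 and 17.4 RPKM in saline libraries with that label. It had 15.2, 16.6, 17.1 and 15.3 RPKM in wild type LPS libraries, against 19.4, 20.7, 20.9 and 19.8 RPKM in wild type saline libraries. LPS and saline libraries overlapped in mice labelled Lcn2-/-, through saline replicate 4, and not in wild type. It fell in mice labelled Lcn2-/- (-0.15 ± 0.048, adjusted p = 0.02, and 0.063 without saline replicate 3 labelled Lcn2-/-) and in wild type (-0.33 ± 0.048, adjusted p = 7.3e-05). Dnajb5 had 12.5, 11.2, 12.1 and 12.1 RPKM in LPS libraries labelled Lcn2-/-, against 15.0, 16.1, 16.3 and 15.3 RPKM in saline libraries with that label. It had 12.5, 12.02, 12.04 and 12.04 RPKM in wild type LPS libraries, against 12.8, 14.6, 14.4 and 13.9 RPKM in wild type saline libraries. LPS libraries lay below saline libraries in both genotypes. The effect was -0.39 ± 0.046, adjusted p = 4.9e-06 in mice labelled Lcn2-/- and -0.19 ± 0.046, adjusted p = 0.005 in wild type. Dnajb3, Dnajb4, Dnajb12 and Dnajb14 passed in no comparison with all libraries. With saline replicate 4 labelled Lcn2-/- left out of the shared fit, Dnajb12 rose (0.10, adjusted p = 0.04) and Dnajb14 fell (-0.092, adjusted p = 0.022) in wild type. The Dnajb3 value of saline replicate 4 labelled Lcn2-/- was 0.208 RPKM, against 0.798 to 1.41 RPKM in the other libraries.

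The Dnajc class holds diverse proteins that share the J domain. With LPS 4 of 24 rose (16.7%) and 8 fell (33.3%) in mice labelled Lcn2-/-, where 20.7% and 27.7% of all genes did. In wild type 1 rose (4.17%) and 2 fell (8.33%), where 11.4% and 13.9% of all genes did. Dnajc24, a diphthamide synthesis factor, had 2.44, 2.32, 2.24 and 2.55 RPKM in LPS libraries labelled Lcn2-/-, against 3.85, 3.57, 4.09 and 4.57 RPKM in saline libraries with that label. It had 3.57, 2.91, 3.23 and 2.79 RPKM in wild type LPS libraries, against 3.77, 4.68, 3.93 and 4.28 RPKM in wild type saline libraries. It fell without overlap in both, by -0.75 ± 0.092, adjusted p = 8e-06 in mice labelled Lcn2-/- and -0.42 ± 0.092, adjusted p = 0.0029 in wild type. After LPS it was lower in libraries labelled Lcn2-/- than in wild type (-0.38 ± 0.092, adjusted p = 0.012). Dnajc17, a nuclear J-domain protein linked to splicing, had 5.42, 5.41, 5.50 and 4.65 RPKM in LPS libraries labelled Lcn2-/-, against 3.73, 4.10, 3.55 and 2.58 RPKM in saline libraries with that label. It had 4.07, 4.29, 4.74 and 4.69 RPKM in wild type LPS libraries, against 4.30, 4.17, 4.22 and 3.69 RPKM in wild type saline libraries. LPS libraries lay above saline libraries in mice labelled Lcn2-/-, and the groups overlapped in wild type. It rose in mice labelled Lcn2-/- (0.60 ± 0.11, adjusted p = 0.0004), and did not pass in wild type (0.12 ± 0.11, adjusted p = 0.5). Without saline replicate 4 labelled Lcn2-/-, its lowest library, the first effect was 0.47 (adjusted p = 0.00013).

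Dnajc11, a mitochondrial J-domain protein, had 6.75, 6.38, 6.33 and 6.75 RPKM in LPS libraries labelled Lcn2-/-, against 5.58, 5.86, 5.44 and 3.94 RPKM in saline libraries with that label. It had 6.12, 6.18, 6.07 and 6.24 RPKM in wild type LPS libraries, against 5.69, 5.54, 5.98 and 5.57 RPKM in wild type saline libraries. Saline replicate 4 labelled Lcn2-/- again lay lowest. The effect was 0.35 ± 0.089, adjusted p = 0.0045 in mice labelled Lcn2-/- and 0.11 ± 0.089, adjusted p = 0.41 in wild type. Without that library both passed, at 0.22 (adjusted p = 0.00034) and 0.11 (adjusted p = 0.029). Dnajc2, which acts on chains leaving the ribosome, had 8.58, 7.47, 7.59 and 7.68 RPKM in LPS libraries labelled Lcn2-/-, against 6.58, 6.73, 6.85 and 7.23 RPKM in saline libraries with that label. It had 6.89, 6.67, 6.18 and 6.92 RPKM in wild type LPS libraries, against 6.51, 6.80, 6.79 and 6.20 RPKM in wild type saline libraries. LPS libraries labelled Lcn2-/- lay above all others, with a rise of 0.19 ± 0.053, adjusted p = 0.0071 in mice labelled Lcn2-/- against 0.02 ± 0.053, adjusted p = 0.85 in wild type. Dnajc7, a J-domain protein that binds both HSP70 and HSP90, had 30.5, 31.5, 29.7 and 29.6 RPKM in LPS libraries labelled Lcn2-/-, against 28.4, 28.3, 27.7 and 27.1 RPKM in saline libraries with that label. It had 27.1, 28.6, 27.6 and 29.4 RPKM in wild type LPS libraries, against 28.4, 29.1, 30.1 and 29.3 RPKM in wild type saline libraries. All LPS libraries labelled Lcn2-/- lay above their saline libraries and the wild type LPS libraries. Its rise in mice labelled Lcn2-/- was small (0.12 ± 0.032, adjusted p = 0.0067, and 0.26 with GC content and length trends removed), and the wild type effect did not pass (-0.053 ± 0.032, adjusted p = 0.27).

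Several Dnajc genes fell with LPS in mice labelled Lcn2-/-. Dnajc1, an endoplasmic reticulum membrane protein, had 2.36, 2.16, 2.23 and 2.39 RPKM in LPS libraries labelled Lcn2-/-, against 2.75, 2.67, 2.90 and 3.23 RPKM in saline libraries with that label. It had 2.66, 2.56, 2.48 and 2.50 RPKM in wild type LPS libraries, against 2.56, 2.42, 2.50 and 2.59 RPKM in wild type saline libraries. The 2 groups labelled Lcn2-/- lay on either side of the wild type libraries. The effect was -0.33 ± 0.062, adjusted p = 0.00038 in mice labelled Lcn2-/- and 0.02 ± 0.062, adjusted p = 0.87 in wild type. Dnajc14 had 7.89, 7.08, 6.88 and 7.94 RPKM in LPS libraries labelled Lcn2-/-, against 8.90, 8.18, 8.48 and 11.4 RPKM in saline libraries with that label. It had 7.91, 8.32, 8.76 and 8.53 RPKM in wild type LPS libraries, against 8.71, 8.48, 9.03 and 8.69 RPKM in wild type saline libraries. Saline replicate 4 labelled Lcn2-/- was the highest library. The effect was -0.30 ± 0.083, adjusted p = 0.0072 in mice labelled Lcn2-/- and -0.059 ± 0.083, adjusted p = 0.67 in wild type. Without it the first was -0.20 (adjusted p = 0.0066). Dnajc28 had 1.64, 1.46, 1.72 and 1.88 RPKM in LPS libraries labelled Lcn2-/-, against 2.08, 1.89, 1.91 and 1.98 RPKM in saline libraries with that label. It had 2.06, 2.09, 2.38 and 1.74 RPKM in wild type LPS libraries, against 1.94, 1.97, 1.98 and 1.95 RPKM in wild type saline libraries. LPS libraries lay below saline libraries in mice labelled Lcn2-/-, and the groups overlapped in wild type. It fell in mice labelled Lcn2-/- (-0.23 ± 0.090, adjusted p = 0.042, and 0.14 without LPS replicate 2 labelled Lcn2-/-) and did not pass in wild type (0.066 ± 0.090, adjusted p = 0.66). The call in mice labelled Lcn2-/- was ended by 13 of the 24 alternatives.

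Dnajc6 (auxilin, which uncoats clathrin-coated vesicles in neurons) had 26.4, 26.5, 26.9 and 26.8 RPKM in LPS libraries labelled Lcn2-/-, against 29.2, 28.1, 28.4 and 30.9 RPKM in saline libraries with that label. It had 28.9, 29.6, 30.2 and 29.0 RPKM in wild type LPS libraries, against 29.8, 28.3, 26.2 and 26.1 RPKM in wild type saline libraries. LPS libraries labelled Lcn2-/- lay below their saline libraries and the wild type LPS libraries. It fell in mice labelled Lcn2-/- (-0.13 ± 0.041, adjusted p = 0.016, and 0.054 with GC content and length trends removed), and the wild type effect had the opposite sign and did not pass (0.094 ± 0.041, adjusted p = 0.11). Dnajc15, a mitochondrial J-domain protein and the highest of its class, had 38.0, 38.3, 36.8 and 37.4 RPKM in LPS libraries labelled Lcn2-/-, against 40.1, 41.7, 41.6 and 51.6 RPKM in saline libraries with that label. It had 36.9, 40.5, 38.9 and 38.1 RPKM in wild type LPS libraries, against 37.4, 46.9, 46.5 and 45.5 RPKM in wild type saline libraries. Saline replicate 4 labelled Lcn2-/- was the highest library and wild type saline replicate 1 fell within the LPS range. It fell in mice labelled Lcn2-/- (-0.21 ± 0.076, adjusted p = 0.03, and 0.083 without saline replicate 4 labelled Lcn2-/-) and did not pass in wild type (-0.19 ± 0.076, adjusted p = 0.086). With saline replicate 4 labelled Lcn2-/- left out of the shared fit, the same wild type effect of Dnajc15 passed (adjusted p = 0.016). Dnajc13, an endosomal protein (-0.21 ± 0.055, adjusted p = 0.0062, and up to 0.059 under the alternatives), and Dnajc16 (-0.18 ± 0.053, adjusted p = 0.011, and up to 0.078 under the alternatives) also fell in mice labelled Lcn2-/-. Both effects include saline replicate 4, the highest library for each (4.51 and 9.75 RPKM). Dnajc5, which guards synaptic vesicle proteins, passed in no comparison with all libraries, nor did Dnajc8, Dnajc9, Dnajc12, Dnajc18, Dnajc19, Dnajc21, Dnajc25, Dnajc27 and Dnajc30. Dnajc25 rose in mice labelled Lcn2-/- without saline replicate 4 (0.25, adjusted p = 0.039).

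In wild type 2 further Dnajc genes passed. Dnajc10, a disulfide reductase of the endoplasmic reticulum, had 16.3, 15.3, 15.1 and 16.6 RPKM in LPS libraries labelled Lcn2-/-, against 14.9, 15.6, 15.3 and 14.4 RPKM in saline libraries with that label. It had 17.6, 16.4, 16.9 and 17.0 RPKM in wild type LPS libraries, against 15.8, 15.3, 15.4 and 15.4 RPKM in wild type saline libraries. The groups did not overlap in wild type and did in mice labelled Lcn2-/-. It rose in wild type (0.13 ± 0.037, adjusted p = 0.015, and 0.13 with GC content and length trends removed) and did not pass in mice labelled Lcn2-/- (0.07 ± 0.037, adjusted p = 0.13). Dnajc4 had 8.97, 9.43, 9.75 and 8.88 RPKM in LPS libraries labelled Lcn2-/-, against 9.88, 9.44, 9.51 and 10.3 RPKM in saline libraries with that label. It had 9.26, 9.66, 9.09 and 9.54 RPKM in wild type LPS libraries, against 10.5, 10.1, 10.6 and 10.5 RPKM in wild type saline libraries. Wild type LPS libraries lay below every wild type saline library. It fell in wild type (-0.15 ± 0.039, adjusted p = 0.0094, and 0.11 with GC content and length trends removed) and did not pass in mice labelled Lcn2-/- (-0.079 ± 0.039, adjusted p = 0.11).

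**Figure D3:**
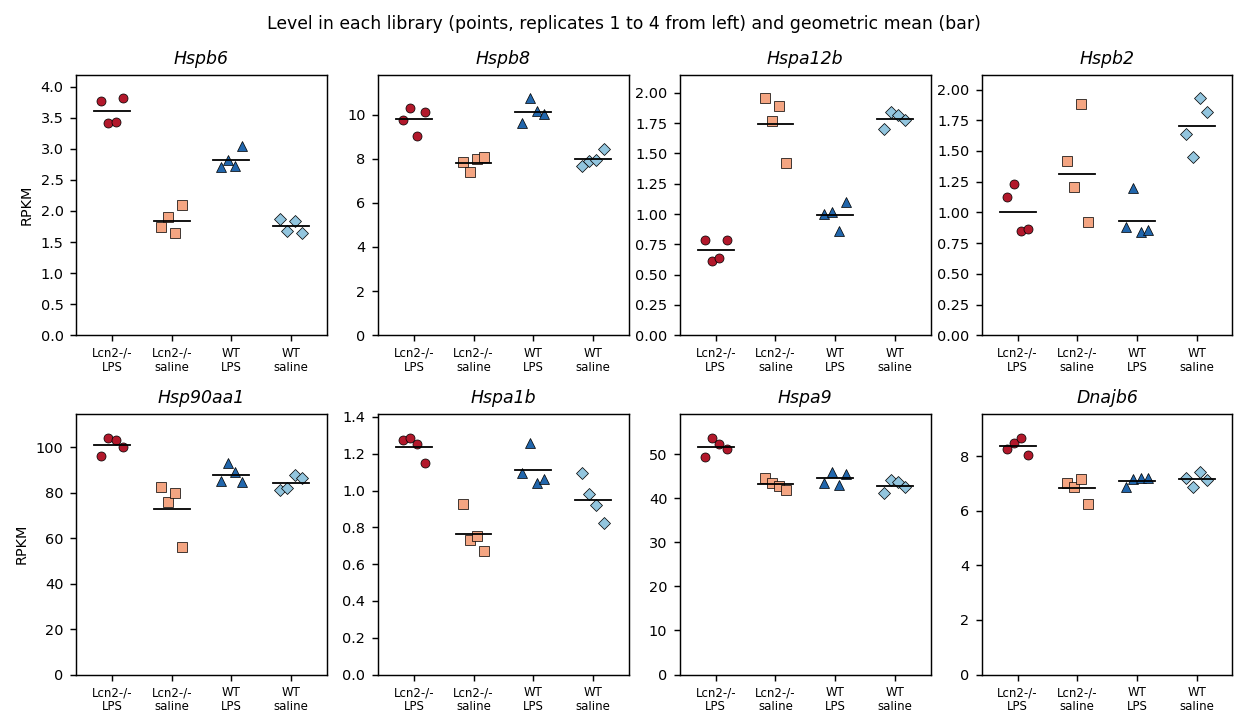
Level in each library (RPKM, linear axis from 0) of 8 members, with the groups from left to right Lcn2-/- LPS, Lcn2-/- saline, wild type (WT) LPS and wild type saline; bars are geometric means of 4 libraries. Hspa9, Dnajb6 and Hsp90aa1 lie highest in the Lcn2-/- LPS libraries, and the single low Hsp90aa1 point at 56.1 RPKM is saline replicate 4.

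After LPS, 8 chaperone genes were higher (13.3%) and 5 lower (8.33%) in mice labelled Lcn2-/- than in wild type, where 7.04% of all genes were called higher and 8.74% lower. The 8 were Hspb6, Hspa9, Hsph1, Dnaja2, Dnajb6, Dnajb11, Dnajc2 and Dnajc7, and the 5 were Hspa12b, Hspbap1, Dnajc6, Dnajc24 and Dnajc28. The comparison shares its libraries with the LPS comparisons above. The 2 LPS groups did not overlap for 43.3% of the 60, where 28% of all genes tested did not. The median log2 fold change was 0.042 over the 60 and -0.0098 over all genes. Hspa9 had the smallest adjusted p, 0.21 ± 0.034, adjusted p = 0.00094, and Dnajb6 differed by 0.24 ± 0.044, adjusted p = 0.0028. Dnajb11 differed by 0.17 ± 0.041, adjusted p = 0.011 and Dnajc2 by 0.23 ± 0.053, adjusted p = 0.0089. Dnaja2 (0.13 ± 0.032, adjusted p = 0.018, and 0.052 without wild type LPS replicate 1) and Dnajc7 (0.11 ± 0.032, adjusted p = 0.038, and 0.12 without LPS replicate 2 labelled Lcn2-/-) differed by less. Dnajc28 (-0.30 ± 0.090, adjusted p = 0.035, and 0.11 without wild type LPS replicate 3) and Dnajc6 (-0.14 ± 0.041, adjusted p = 0.027, and 0.076 without wild type LPS replicate 3) were lower. Of the 24 alternatives 9 ended the Dnajc7 call, 8 the Dnajc28 call and 5 the Dnajc6 call.

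The counts after LPS depended on which libraries entered the fit. Leaving saline replicate 4 labelled Lcn2-/- out of the shared fit gave 14 higher and 12 lower, where 13.7% of all genes were called higher and 16.1% lower. Hsp90aa1, Hspa8 and Dnaja1 were then higher after LPS in mice labelled Lcn2-/- (adjusted p = 0.0017, 0.0069 and 0.0016), as were Dnajb14 (0.027), Dnajc17 (0.02) and Hspe1 (0.046). Genes that were then lower were Dnaja3 (adjusted p = 0.041), Dnajc1 (0.025), Dnajc5 (0.04), Dnajc10 (0.033), Dnajc14 (0.017), Dnajc16 (0.016) and Dnajc27 (0.0061). None of the levels compared comes from that library. The count of 5 lower genes became 3 without LPS replicate 1 labelled Lcn2-/- or wild type LPS replicate 2, and 2 without LPS replicates 2 or 3 labelled Lcn2-/- or wild type LPS replicate 3, where 4.65% to 7.46% of all genes were called lower.

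After saline no chaperone gene passed the test between the genotypes (limma): 0 of 60 were called, and 0 were called without saline replicate 4. An unadjusted p under 0.05 was found for 9 of the 60 and for 1897 of all 17349 genes tested. Among all genes 0.0346% were called higher and 0.0115% lower. Of the 60, the saline groups did not overlap for Dnajb5 and Dnajc1 (3.33%), and over all genes tested they did not overlap for 5.19%. Dnajb5 was higher by 0.17 ± 0.046, adjusted p = 0.29 and Dnajc1 by 0.20 ± 0.062, adjusted p = 0.38, and neither passed.

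The test of the difference between the 2 LPS effects asks whether the response itself depended on the genotype label. LPS acted more positively in mice labelled Lcn2-/- on 5 chaperone genes (8.33%) and more negatively on 2 (3.33%), where 3.9% of all genes were called higher and 4.92% lower. This test uses every library, so it shares all its samples with the comparisons above. Among these Dnajb6 gave the largest positive difference, 0.30 ± 0.063, adjusted p = 0.011, followed by Dnajb11 (0.21 ± 0.058, adjusted p = 0.039, and 0.084 without wild type saline replicate 3). Hspa9 differed by 0.20 ± 0.048, adjusted p = 0.021. Dnajc7 (0.17 ± 0.046, adjusted p = 0.033, and 0.071 without wild type LPS replicate 1) and Dnaja2 (0.17 ± 0.046, adjusted p = 0.035, and 0.081 with GC content and length trends removed) followed. Dnajc1 (-0.35 ± 0.087, adjusted p = 0.023, and 0.053 without wild type LPS replicate 1) and Dnajc6 (-0.22 ± 0.058, adjusted p = 0.029, and 0.063 without wild type saline replicate 3) were negative. The Hspa9 and Dnajb6 calls held under all 23 alternatives that could be fitted for this test. Of these alternatives 13 ended the Dnajb11 call, 13 the Dnaja2 call, 9 the Dnajc7 call, 7 the Dnajc6 call and 3 the Dnajc1 call.

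Some larger estimates did not pass. Hsp90aa1 differed by 0.41 ± 0.12, adjusted p = 0.051, Hspa1b by 0.47 ± 0.16, adjusted p = 0.075 and Hspa12b by -0.47 ± 0.16, adjusted p = 0.08. Without saline replicate 4 labelled Lcn2-/- there were 10 positive and 4 negative calls, where 6.03% of all genes were called higher and 7.04% lower. Hsp90aa1 was then 0.28 (adjusted p = 0.006), Dnaja1 0.20 (adjusted p = 0.016) and Hspa12b -0.57 (adjusted p = 0.02). Dnajb14 was 0.14 (adjusted p = 0.039), Dnajc17 0.35 (adjusted p = 0.039), Hspb6 0.35 (adjusted p = 0.029) and Dnajb5 -0.21 (adjusted p = 0.047). Hspa1b was 0.41 and still did not pass (adjusted p = 0.092). With all libraries Hspb6 had not passed (0.29 ± 0.11, adjusted p = 0.11), nor had Hspb8 (-0.019 ± 0.068, adjusted p = 0.88) or Dnajb1 (-0.0078 ± 0.058, adjusted p = 0.94). The 5 positive calls became 8 without saline replicate 1 labelled Lcn2-/-, where 3.46% of all genes were called higher, and 2 or 3 without LPS replicates 2 or 3 labelled Lcn2-/-, any wild type LPS replicate, or wild type saline replicates 2, 3 or 4, where 2.01% to 3.35% were. The 2 negative calls became 0 without LPS replicates 2 or 3 labelled Lcn2-/-, and 1 without wild type LPS replicates 1, 2 or 3 or wild type saline replicates 3 or 4, where 2.18% to 3.2% of all genes were called lower.

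**Figure D4:**
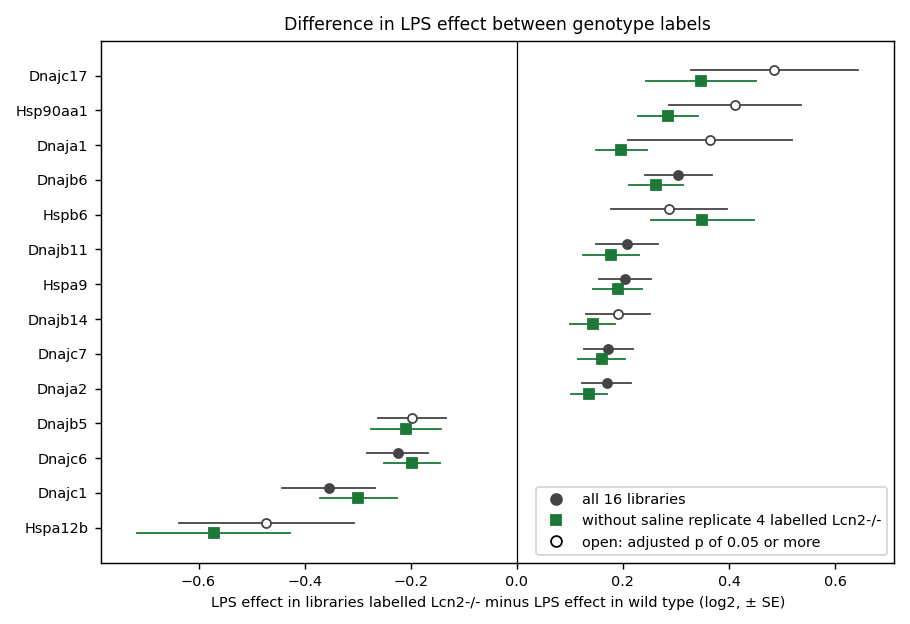
Difference between the LPS effects (mice labelled Lcn2-/- minus wild type, log2, ± SE) for the 14 members called with all 16 libraries or without saline replicate 4 labelled Lcn2-/-; open symbols had an adjusted p of 0.05 or more. Leaving the library out moved Hsp90aa1 and Dnaja1 toward 0 with shorter bars, and Dnajb6 and Hspa9 were filled both times.

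The machinery around these chaperones was examined in 6 lists of genes that are not members. Of all genes tested, 20.7% rose and 27.7% fell with LPS in mice labelled Lcn2-/-, and 11.4% and 13.9% in wild type. Without saline replicate 4 labelled Lcn2-/- these shares were 20.7% and 28.1%, and 14.9% and 19.8%. Among heat shock transcription factors and regulators, 5 of 7 were tested; 0 rose and 1 fell with LPS in mice labelled Lcn2-/-, and 0 rose and 2 fell in wild type (median log2 fold changes -0.13 and -0.095). Hsf1, the main activator of heat shock genes, had 11.5, 10.5, 12.7 and 12.3 RPKM in LPS libraries labelled Lcn2-/-, against 14.0, 14.2, 14.2 and 12.9 RPKM in saline libraries with that label. It had 12.6, 11.5, 12.3 and 11.3 RPKM in wild type LPS libraries, against 14.2, 14.4, 12.9 and 14.0 RPKM in wild type saline libraries. LPS libraries lay below saline libraries in both genotypes, a fall of -0.24 ± 0.058, adjusted p = 0.0035 in mice labelled Lcn2-/- and -0.22 ± 0.058, adjusted p = 0.011 in wild type. Hsf4 did not pass in mice labelled Lcn2-/- (0.058 ± 0.041, adjusted p = 0.25) and fell in wild type (-0.16 ± 0.041, adjusted p = 0.0091), and after LPS it was higher in mice labelled Lcn2-/- (0.17 ± 0.041, adjusted p = 0.013). Hsbp1, a negative regulator of HSF1, did not pass in mice labelled Lcn2-/- (-0.045 ± 0.038, adjusted p = 0.35) or in wild type (-0.046 ± 0.038, adjusted p = 0.43). In mice labelled Lcn2-/- 0 rose and 2 fell without saline replicate 4.

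Of 11 HSP70 exchange factors and regulators, 3 rose and 2 fell with LPS in mice labelled Lcn2-/-, where 20.7% and 27.7% of all genes did. In wild type 0 passed, where 11.4% of all genes rose and 13.9% fell. An unadjusted p under 0.05 (limma) was found there for 2 of the 11 and for 6209 of all 17349 genes tested. The medians were 0.056 and -0.055. Bag3, the exchange factor that pairs with Hspb8, had 8.93, 10.4, 10.8 and 8.66 RPKM in LPS libraries labelled Lcn2-/-, against 7.07, 6.08, 6.89 and 4.35 RPKM in saline libraries with that label. It had 7.15, 6.73, 6.56 and 7.51 RPKM in wild type LPS libraries, against 5.93, 6.52, 6.94 and 7.14 RPKM in wild type saline libraries. The LPS libraries labelled Lcn2-/- lay above all 12 others. Saline replicate 4 with that label lay lowest, and the effects given here include it. Bag3 rose in mice labelled Lcn2-/- (0.69 ± 0.12, adjusted p = 0.00031), did not pass in wild type (0.077 ± 0.12, adjusted p = 0.72), and the LPS effects differed (0.61 ± 0.18, adjusted p = 0.042, and up to 0.089 under the alternatives). Grpel1, the exchange factor of Hspa9, rose (0.18 ± 0.041, adjusted p = 0.0019) and its relative Grpel2 fell (-0.31 ± 0.085, adjusted p = 0.0071) in mice labelled Lcn2-/-. Both effects include saline replicate 4, the lowest library for Grpel1 (8.04 RPKM) and the highest for Grpel2 (4.94 RPKM). In wild type 0 rose and 3 fell without saline replicate 4 labelled Lcn2-/-.

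Of 18 HSP90 co-chaperones, 5 rose and 3 fell with LPS in mice labelled Lcn2-/-, where 20.7% and 27.7% of all genes did. In wild type 1 rose and 2 fell, where 11.4% and 13.9% of all genes did. The medians were 0.037 and -0.037. Fkbp5, a glucocorticoid-induced immunophilin, had 26.1, 22.7, 24.0 and 28.1 RPKM in LPS libraries labelled Lcn2-/-, against 5.57, 5.68, 5.52 and 4.67 RPKM in saline libraries with that label. It had 30.4, 28.8, 27.9 and 30.0 RPKM in wild type LPS libraries, against 4.42, 4.59, 4.71 and 4.58 RPKM in wild type saline libraries. The groups lay far apart in both genotypes. Its change was the largest of the 6 lists, 2.23 ± 0.067, adjusted p = 1.1e-12 in mice labelled Lcn2-/- and 2.68 ± 0.067, adjusted p = 2.1e-13 in wild type, and the 2 effects differed (-0.44 ± 0.094, adjusted p = 0.013). Its counterpart Fkbp4 did not pass in mice labelled Lcn2-/- (-0.012 ± 0.046, adjusted p = 0.85) and fell in wild type (-0.20 ± 0.046, adjusted p = 0.0048). Cdc37l1 fell in mice labelled Lcn2-/- (-0.29 ± 0.071, adjusted p = 0.0036), with a different effect from wild type (-0.42 ± 0.10, adjusted p = 0.021). Both include saline replicate 4 labelled Lcn2-/-, at 23.7 RPKM against 18.2 to 19.3 RPKM in the other saline libraries with that label. With saline replicate 4 labelled Lcn2-/- left out, 2 rose and 5 fell in wild type.

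The cytosolic chaperonin CCT folds actin and tubulin, and prefoldin delivers chains to it. Of these 14 genes 8 rose and 0 fell with LPS in mice labelled Lcn2-/-, where 20.7% and 27.7% of all genes did. In wild type 0 passed, where 11.4% of all genes rose and 13.9% fell. An unadjusted p under 0.05 (limma) was found there for 2 of the 14 and for 6209 of all 17349 genes tested. The medians were 0.12 and 0.0033. After LPS 5 were higher and 0 lower in mice labelled Lcn2-/- than in wild type, where 7.04% and 8.74% of all genes were. For 4 the LPS effects differed, all in the positive direction, where 3.9% of all genes were called higher and 4.92% lower. Cct3 had 18.9, 20.2, 20.5 and 19.4 RPKM in LPS libraries labelled Lcn2-/-, against 15.6, 16.3, 16.4 and 12.7 RPKM in saline libraries with that label. It had 15.8, 16.4, 15.2 and 16.9 RPKM in wild type LPS libraries, against 15.0, 15.4, 17.1 and 16.8 RPKM in wild type saline libraries. The LPS libraries labelled Lcn2-/- lay above all others. Saline replicate 4 with that label lay lowest, and the effects given here include it. Its effect was 0.38 ± 0.070, adjusted p = 0.00037 in mice labelled Lcn2-/- and -0.00053 ± 0.070, adjusted p = 1 in wild type, with a difference of 0.38 ± 0.099, adjusted p = 0.029, and up to 0.065 under the alternatives. Tcp1 (0.27 ± 0.059, adjusted p = 0.016), Cct4 (0.19 ± 0.048, adjusted p = 0.03, and up to 0.067 under the alternatives) and Cct5 (0.29 ± 0.058, adjusted p = 0.0093) were the other 3. The effects differed for 5 without saline replicate 4 labelled Lcn2-/-, where 6.03% of all genes were called higher and 7.04% lower. Also without that library, 1 of the 14 rose in wild type.

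Of 11 mitochondrial chaperones and proteases 3 rose and 0 fell with LPS in mice labelled Lcn2-/-, where 20.7% and 27.7% of all genes did. In wild type 1 rose and 0 fell, where 11.4% and 13.9% of all genes did. The medians were 0.12 and 0.036. Clpx, the unfoldase of the mitochondrial matrix protease, rose in mice labelled Lcn2-/- (0.30 ± 0.052, adjusted p = 0.00023) and in wild type (0.24 ± 0.052, adjusted p = 0.0027). Of 4 J-domain proteins with other symbols 2 rose in mice labelled Lcn2-/-, and 0 passed in wild type (median 0.099 and 0.065). In wild type 2 of the 4 had an unadjusted p under 0.05 (limma), as had 6209 of all 17349 genes tested. The 2 that rose were Sec63, of the endoplasmic reticulum translocon (0.16 ± 0.033, adjusted p = 0.00081), and the auxilin relative Gak (0.088 ± 0.031, adjusted p = 0.031, and up to 0.082 under the alternatives). The medians over all genes tested were -0.028 for LPS in mice labelled Lcn2-/- and -0.025 in wild type. Without saline replicate 4 labelled Lcn2-/-, 2 of the mitochondrial genes rose in wild type, and of the J-domain proteins 1 rose in each genotype.

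**Figure D5:**
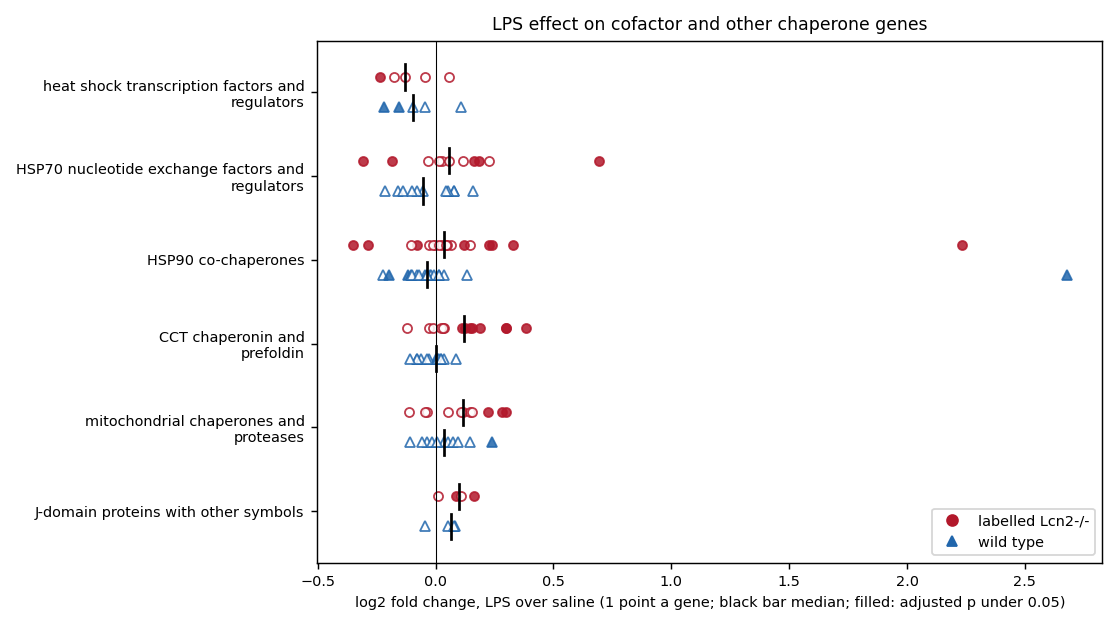
LPS effect (log2 fold change, LPS over saline) on each tested gene of the 6 lists, mice labelled Lcn2-/- above wild type; filled symbols passed at an adjusted p under 0.05 and black bars are list medians. Fkbp5 lies far right at 2.23 and 2.68, and the CCT and prefoldin points of mice labelled Lcn2-/- have a median of 0.12.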

How the data were processed

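RNA from 16 hemi-brain libraries was measured by sequencing, and the authors deposited 1 table of 33289 genes in log2 RPKM after conditional quantile normalization, per the file headers and the labels. The genome build was mm10, per the submitters' processing notes, and the aligner, counter and strand setting were not given in the sources used here. No counts were used, so depth is unknown and no counting interval is given. Every sample column was mapped to a labelled sample. The design text speaks of 3 to 4 replicates a group and 4 were used; one title, that of the saline library labelled Lcn2-/- and numbered 4, has an added letter. Replicate numbers follow listing order.

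Symbols came from GENCODE vM21 and matched 32695 IDs, with 594 unmatched. Genes at log2 RPKM of at least -1 (0.5 RPKM) in at least 3 libraries were kept, 17349 in all. limma 3.58.1 (R 4.3.3) fitted 4 group means to the deposited log2 values of all 16 libraries with a trended empirical Bayes prior; tests were two-sided, with Benjamini-Hochberg adjustment over all genes and calls at an adjusted p under 0.05. The fit was tested on simulated data. The alternatives were another pseudocount (0.5 RPKM), filters, median centring, removal of GC content and length trends (known for 98.9% of genes tested), fits to the compared groups only, no trend, array weights, and each library left out. The members and lists were chosen with earlier results of these data known. Values in every library are given per comparison for the 8 called members that rose most and the 8 that fell most, for core members and for the highest of each family, and from each list for up to 3 called genes in each direction. Of the 68 genes, 26 share exonic bases with another gene and 5 share a larger part, Hspa1l (71.9%), Dnaja4 (44.1%), Dnajb8 (37.2%), Hspb2 (30.2%) and Dnajc30 (26.2%), so their values are uncertain without strand. Promoters are from RefSeq (GRCm38.p6), searched with Python 3.11.15.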

Additional observations from a re-analysis of the deposited data

Results flagged for a closer look

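In 12 of 140 groups of 4 libraries, for the 35 members whose values are given, 1 library stood apart by Dixon's criterion; chance gives about 1 in 20, or 7 groups. Saline replicate 4 labelled Lcn2-/- stood low for Dnaja1 (12.1 RPKM against 18.9 to 19.9) and Hspbp1 (26.5 against 35.9 to 37.1) and high for Dnajc15 (51.6 against 40.1 to 41.7). Among LPS libraries labelled Lcn2-/-, replicate 1 was high for Dnaja2 (78.7 against 75.7 to 76.1), replicate 3 high for Hspa8 (26.3 against 22.6 to 23.2) and replicate 4 low for Dnajc17 (4.65 against 5.41 to 5.50). Wild type LPS replicate 1 was high for Dnajb5 (12.5 against 12.02 to 12.04) and low for Dnajb6 (6.87 against 7.16 to 7.20) and Hspe1 (30.6 against 32.8 to 33.0). Wild type LPS replicate 2 was high for Hspb2 (1.20 against 0.838 to 0.884). Among wild type saline libraries, replicate 1 was low for Dnajc15 (37.4 against 45.5 to 46.9) and replicate 3 high for Hsph1 (34.3 against 29.3 to 30.0).

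The LPS effects of the genotypes differed (limma interaction, mice labelled Lcn2-/- minus wild type, log2) for Dnaja2 by 0.17, Dnajb11 by 0.21, Dnajb6 by 0.30, Dnajc7 by 0.17, Hspa9 by 0.20, Dnajc1 by -0.35 and Dnajc6 by -0.22.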

How the results depend on the processing

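Of 59 calls on named members, 22 were lost under at least 1 alternative (115 of 1407 alternative values), and none changed direction. None was lost under array weights, median centring, log2(RPKM + 0.5) or the stricter filter (57 calls), 10 with GC content and length trends removed, 7 without a filter, 4 without the trend and 4 of 52 with only the compared groups fitted.

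For LPS in wild type, 3 members rose and 8 fell. Array weights gave 7 higher (15.8% of all genes), removal of GC and length trends 13 lower (16.4% of all genes), and no filter 14 lower (34.5% of all genes), where the median of all genes was -0.22. Leaving out 1 library gave 2 to 5 higher and 7 to 12 lower. For LPS in mice labelled Lcn2-/- it gave 16 to 18 higher and 12 to 16 lower. For the genotypes after LPS, with 8 higher and 5 lower, array weights gave 16 and 11 (13.8% and 16.7% of all genes), only the compared groups 15 and 8 (12% and 13.3%), and no filter 3 lower (3.43%); 1 library left out gave 6 to 14 and 2 to 12. For the interaction, with 5 higher and 2 lower, array weights gave 12 and 6 (7.97% and 9.49% of all genes), no trend 2 higher (3.49%), removed trends 3 higher (4.34%), and no filter 3 and 1 (1.26% and 1.46%); 1 library left out gave 2 to 10 and 0 to 4. After saline it gave 0 in each direction. The cause was not tested. No paired analysis was possible because the labels carry no replicate numbers that groups share. Depth is unknown, so low genes such as Hspb9 and Hspbap1 have no counting error.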
